A study of Drosophila melanogaster with 12 samples.

Results

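The Sox genes of Drosophila melanogaster encode transcription factors that bind and bend DNA through an HMG box. SoxN, D (Dichaete), Sox21a and Sox21b belong to group B, Sox14 to group C, Sox100B to group E and Sox15 to group F. These 7 genes were taken by name from 17684 annotated genes, and every peak that overlapped a gene body or the 5 kb on either side was counted. Sox102F, a Sox gene on chromosome 4, was not among the 7 and is counted below with other HMG-box genes. The windows measured 13.0 kb at D to 28.9 kb at Sox21b. Those of Sox21a and Sox21b, which are neighbours, overlap. The RefSeq table gives no strand, so positions are stated against the lower or higher coordinate end of a gene, and exons, introns and UTRs were not separated.

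Chromatin immunoprecipitation and sequencing was done in Kc167 cells, a line of embryonic origin labelled as female. One group received 12 µg of dsRNA against CP190 by nucleofection (dsCP190) and the other group was nucleofected with no RNA (mock). Both were grown for 6 days. CP190 and CLAMP were each precipitated from 2 libraries per treatment, which gives 8 peak lists in 4 groups. The 4 input samples were not used here. The design text names a knockdown of CLAMP, whereas CP190 is the target named in the title and in the label of every sample, and the labels were followed. No transcript was measured, so the identity of the cells was not checked against markers.

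CP190 is a protein of chromatin insulators, which reaches DNA mostly through partner proteins and is found at gene ends and domain borders. CLAMP is a zinc-finger protein that recognises GA-rich DNA, and in males it helps to bring the dosage compensation complex to the X chromosome. Genes for developmental regulators such as SoxN and D are commonly flanked by long stretches of noncoding regulatory DNA.

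The lists held 2047 and 3138 CP190 peaks in dsCP190 cells and 7669 and 7964 in mock cells. For CLAMP they held 2468 and 901 peaks in dsCP190 cells and 4471 and 4514 in mock cells. No protein or RNA measurement of CP190 was used here, so these totals do not show by themselves how far CP190 was depleted. Each peak carries a fold enrichment, which is the authors' own value, made by their peak caller for the peak summit. From this value and the deposited −log10 p, the number of fragments at the summit and the local background could be solved for, and all 57 peaks in the Sox windows gave a whole number of fragments. The median ratio of backgrounds at shared regions was taken as a rough guide to relative depth. Depth itself was not measured, and the background also depends on the caller's control and settings. CLAMP libraries from dsCP190 cells had 0.359 to 0.445 of the background of the mock libraries, and CP190 libraries had 0.530 to 0.917. At shared regions both comparisons therefore set dsCP190 libraries of lower background against mock libraries of higher background, and more so for CLAMP. For CP190 the replicates 1 differed little, with a ratio of 0.917. Over all listed peaks their median backgrounds were 11.0 in dsCP190 cells and 10.69 in mock cells. Against mock replicates 1 and 2, the CLAMP ratios were 0.368 and 0.445 for dsCP190 replicate 1 and 0.359 and 0.429 for dsCP190 replicate 2. These 2 libraries listed 2468 and 901 peaks at similar ratios. Why the list lengths differ was not tested.

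**Figure D1:**
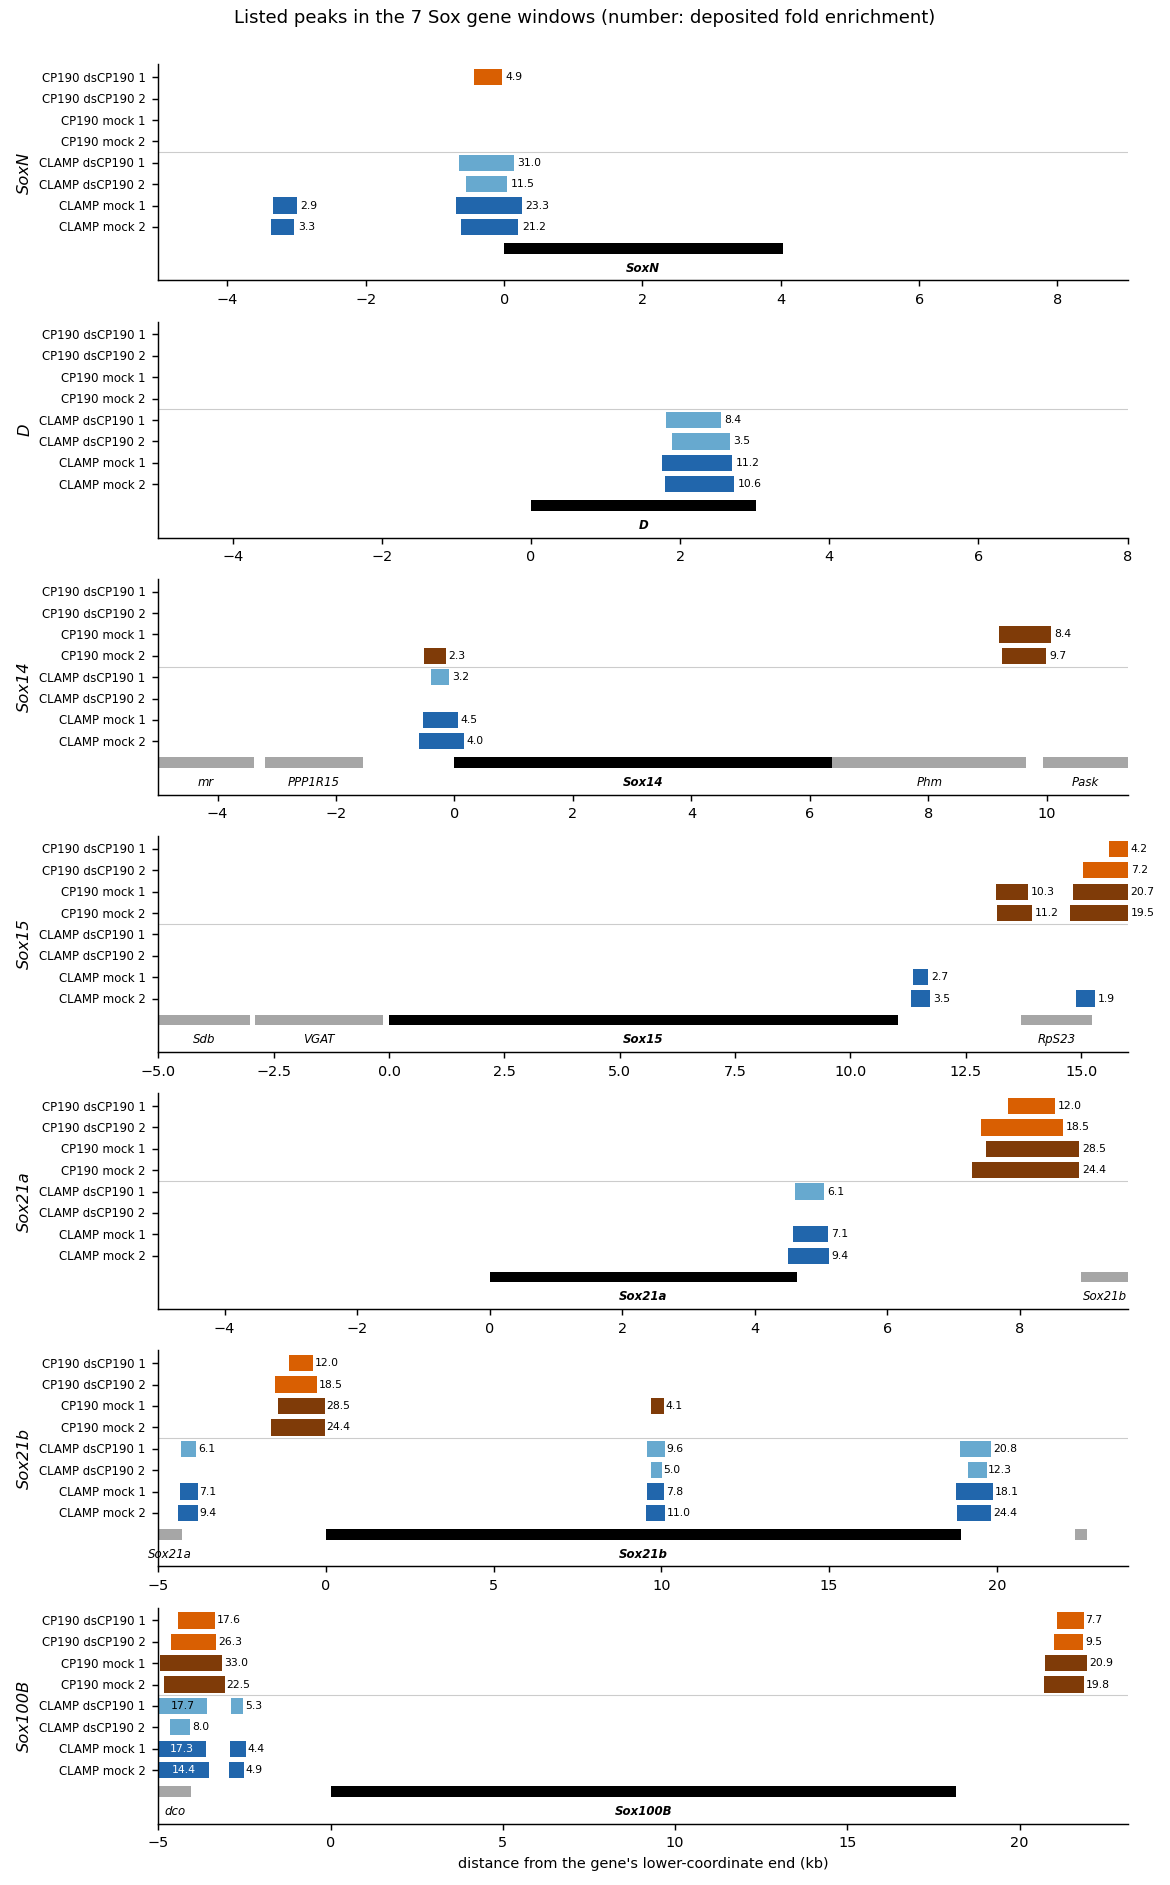
Peaks of the 8 lists in the 7 Sox gene windows, with distance from the lower coordinate end of the gene in kb on the horizontal axis and 1 row per library. Bars are listed peaks (orange CP190 dsCP190, brown CP190 mock, light blue CLAMP dsCP190, dark blue CLAMP mock) with the deposited fold enrichment beside or on them, black bars are the Sox gene and grey bars are other genes. CLAMP summits lay within 1 kb of an end of 6 of the 7 genes, against 17.2% of protein-coding genes. CP190 summits did so at 1 of the 7, against 55.4%. The distance was chosen after the values were seen. CP190 peaks in both mock libraries lay outside all 7 gene bodies, for which no share over the genome was taken.

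Reproducible regions of the 2 proteins overlapped at 1 place around the Sox genes, next to dco, and did not overlap elsewhere. Overlapping peaks from the 4 libraries of each antibody were merged into regions, and the word reproducible is used for those that both mock lists contain. The Sox windows held 10 reproducible CLAMP regions, and each of the 7 genes had at least 1, whereas 36.1% of 13922 protein-coding genes had one within 5 kb. They held 6 reproducible CP190 regions, which gave 5 of the 7 genes a region, and 79.4% of protein-coding genes had one. SoxN and D had CLAMP without reproducible CP190, a combination found at 2.41% of protein-coding genes, and the other 5 had both proteins, against 33.6%. Counting only kept regions, those that both dsCP190 lists also contain, CP190 was present at 4 of the 7 genes, against 31.4%, and CLAMP at 4 of the 7, against 10.4%. The windows of different genes differ in length, and no test was made over the 7 genes. Those of SoxN and D were the shortest, at 14.0 and 13.0 kb, and held no other annotated gene. The windows of the other 5 genes held 1 to 5 others.

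CLAMP summits lay within 1 kb of an end of the Sox gene itself at 6 of the 7 genes, a distance chosen after the values were seen. Of protein-coding genes, 17.2% had such a summit. CP190 had a summit within 1 kb of an end at 1 of the 7 genes, Sox21b, against 55.4% of protein-coding genes. For 4 of the 6 CP190 regions, the nearest end belonged to a gene other than a Sox gene. For 8 of the 10 CLAMP regions, it belonged to a Sox gene. With the gene bodies alone, 6 CLAMP and 0 CP190 regions were counted. No share over the genome was taken for gene bodies alone or for the nearest end. Whether these counts are unusual was therefore not tested.

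SoxN, a gene of the early neural ectoderm and of neuroblasts, carried one of the strongest CLAMP regions of the whole data set. The region spans chromosome 2L from 8824949 to 8825906 on dm6 and covers the lower end of SoxN (8825645 to 8829670). CLAMP fold enrichment there was 31.0 and 11.5 in dsCP190 replicates 1 and 2, against 23.3 and 21.2 in mock replicates 1 and 2. The dsCP190 values lie on both sides of the mock values, so the groups overlap. The peak ranked 11 of 2468 and 79 of 901 in the dsCP190 lists, and 15 of 4471 and 68 of 4514 in the mock lists. Summits held 146 and 81 fragments in dsCP190 libraries, over backgrounds of 3.73 and 6.11, and 382 and 366 fragments in mock libraries, over 15.4 and 16.3. The higher fold of dsCP190 replicate 1 thus stood on fewer fragments than either mock value and on the lowest background of the 4 libraries.

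A second, weaker CLAMP region lay from 8822268 to 8822652, with its summit 3140 bp below the lower end of SoxN and in no annotated gene. It was listed in neither dsCP190 library, and had folds of 2.92 and 3.28 in mock libraries. At the estimated background, a fold equal to the mock mean would have given 18 fragments in dsCP190 replicates 1 and 2, where 15 and 16 were needed to reach the lowest −log10 p listed.

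CP190 at SoxN was listed in 1 library only, and that library came from dsCP190 cells. The peak, from 8825208 to 8825612, lay inside the CLAMP region. In dsCP190 replicate 1 it had a fold of 4.87, with 31 fragments (exact Poisson 95% interval 21.1 to 44.0, counting error only) over a background of 5.57. It was listed in neither dsCP190 replicate 2 nor any mock library. That fold would have given 26 fragments in dsCP190 replicate 2, where 13 were needed. In mock replicates 1 and 2 it would have given 33 and 45, where 14 and 19 were needed. These numbers assume the fold of the only library that listed the peak. Why the other libraries did not list it was not tested. Its summit was 7 and 22 bp from the CLAMP summits of dsCP190 replicates 1 and 2. The nearest reproducible CP190 region was 17.19 kb from the gene. Over the genome, 162 CP190 regions were called in dsCP190 replicate 1 alone and 65.4% of them overlapped a reproducible CLAMP region, as did 69.2% of 39 regions called in dsCP190 replicate 2 alone. The shares were 15.0% of 214 regions for mock replicate 1 alone and 11.8% of 533 for mock replicate 2 alone. With 1 library of 2, the SoxN call has no replicate.

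D, which acts in embryonic segmentation and in the nervous system, had a single region in its window. CLAMP was called from 14177367 to 14178333 on 3L, inside the gene body (14175610 to 14178620), with the summit 877 bp from the higher end. Fold enrichment was 8.37 and 3.51 in dsCP190 libraries and 11.2 and 10.6 in mock libraries. Both dsCP190 values are below both mock values, and the gap between the dsCP190 replicates is wider than the gap to the mock values. Of 801 CLAMP regions called in all 4 libraries, 46.4% had this order. Summit fragments numbered 74 and 44 in dsCP190 cells and 238 and 205 in mock cells. CP190 was called in none of the 4 libraries in this window, and its nearest reproducible region was 10.61 kb away.

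Sox21a and Sox21b lie side by side on 3L, 44.285 kb from D. Sox21a acts in the differentiation of intestinal stem cell progeny in the adult. A CP190 region from 14110763 to 14112374 lies in the interval between the genes and ends 31 bp from the lower end of Sox21b (14112405 to 14131324). CP190 fold enrichment was 12.0 and 18.5 in dsCP190 libraries, against 28.5 and 24.4 in mock libraries. Both dsCP190 values are lower. Percentiles within the lists were alike, at 94.3 and 94.1 in dsCP190 lists and 94.1 and 93.9 in mock lists. The lists differ in length, so an equal percentile does not mean an unchanged standing. The peak ranked 117 of 2047 and 185 of 3138 in dsCP190 lists, and 457 of 7669 and 488 of 7964 in mock lists. Fragments numbered 219 and 261 in dsCP190 cells and 505 and 557 in mock cells. It was the strongest CP190 region by fragments among the Sox windows in mock cells.

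CLAMP did not overlap that CP190 region. It was called at the higher end of Sox21a, from 14107989 to 14108594 over the end of the gene (14103481 to 14108118), 2169 bp from the CP190 region. Its fold was 6.07 in dsCP190 replicate 1, with no call in dsCP190 replicate 2, against 7.06 and 9.39 in mock libraries. In dsCP190 replicate 2 the mock fold would have given 58 fragments, where 18 were needed. Reproducible CLAMP regions were ranked over the genome by mean mock percentile and cut into 5 quintiles, and in that of the Sox21a region (quintile 4) 92.1% were called in dsCP190 replicate 1 and 25.6% in dsCP190 replicate 2.

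At Sox21b, CLAMP marked the gene body and the higher end. The body region, from 14121956 to 14122506, had folds of 9.57 and 4.98 in dsCP190 libraries and 7.77 and 11.0 in mock libraries. The end region, from 14131193 to 14132281, had folds of 20.8 and 12.3 in dsCP190 libraries and 18.1 and 24.4 in mock libraries. In both places the groups overlap, and dsCP190 replicate 2 is the lowest of the 4 libraries. CP190 was listed at the body region in mock replicate 1 alone, with a fold of 4.1 and a summit 91 and 72 bp from those of CLAMP in mock replicates 1 and 2. Between the windows of Sox21b and D, a stretch of 34.285 kb, 0 CP190 and 0 CLAMP regions were called.

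Sox14 is induced by the steroid hormone ecdysone and acts in metamorphosis and in the pruning of neuronal processes. CLAMP covered its lower end, from 23978200 to 23978960 on 2R (gene 23978801 to 23985177). Fold enrichment was 3.23 in dsCP190 replicate 1, with no call in dsCP190 replicate 2, and 4.46 and 4.02 in mock libraries. A weak CP190 peak was listed at the same end in mock replicate 2 alone, with a fold of 2.29 and rank 7844 of 7964. A stronger CP190 region lay beyond the other end, from 23987994 to 23988879, over the neighbouring ends of Phm, which encodes an enzyme of neuropeptide amidation, and Pask, a PAS domain kinase. It had folds of 8.44 and 9.71 in mock libraries and no call in dsCP190 cells. The mock fold would have given 89 and 73 fragments in dsCP190 replicates 1 and 2, where 21 and 17 were needed. These numbers assume the mock fold. The median fold over all listed CP190 peaks was 3.90 and 4.78 in dsCP190 libraries and 8.13 and 7.65 in mock libraries. Why no peak was listed was not tested.

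Sox15 acts in the wing hinge and in the sensory bristles. Its gene body (14201390 to 14212413 on 2R) held no peak of either protein. CLAMP was called 284 bp beyond the higher end, from 14212697 to 14213125, with folds of 2.69 and 3.53 in mock libraries and none in dsCP190 cells. As at the weak SoxN region, the mock fold would have given 21 and 20 fragments in dsCP190 replicates 1 and 2, close to the 16 and 18 needed. Both CP190 regions of this window lay at the ends of RpS23, a ribosomal protein gene. The first, from 14214555 to 14215330, had mock folds of 10.3 and 11.2 and no call in dsCP190 cells, where 100 and 82 fragments would have matched that fold and 20 and 16 were needed. The other, from 14216154 to 14217886, had folds of 4.18 and 7.24 in dsCP190 libraries and 20.7 and 19.5 in mock libraries. A CLAMP peak at RpS23 with a fold of 1.87 was listed in mock replicate 2 alone.

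Sox100B, a relative of mammalian Sox9 that acts in the male gonad, had no peak inside its gene body (31065253 to 31083407 on 3R). CP190 was called beyond both ends. At the far side, from 31085959 to 31087218 and 2552 bp beyond the higher end, folds were 7.65 and 9.50 in dsCP190 libraries and 20.9 and 19.8 in mock libraries. On the near side, the region at the neighbouring gene dco, a casein kinase gene of the circadian clock, spans 31060307 to 31062176. Its CP190 folds were 17.6 and 26.3 in dsCP190 libraries and 33.0 and 22.5 in mock libraries, so the groups overlap only here among the 4 kept CP190 regions. This was also the only place where reproducible regions of both proteins overlapped. The CLAMP region there had folds of 17.7 and 8.03 in dsCP190 libraries and 17.3 and 14.4 in mock libraries. Summits of the 2 proteins were 605 to 632 bp apart in dsCP190 cells and 602 to 645 bp apart in mock cells. A smaller CLAMP region, from 31062296 to 31062791, lay 120 bp from the CP190 region at dco without overlap. It was called with a fold of 5.25 in dsCP190 replicate 1 only, and with 4.36 and 4.92 in mock libraries.

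**Figure D2:**
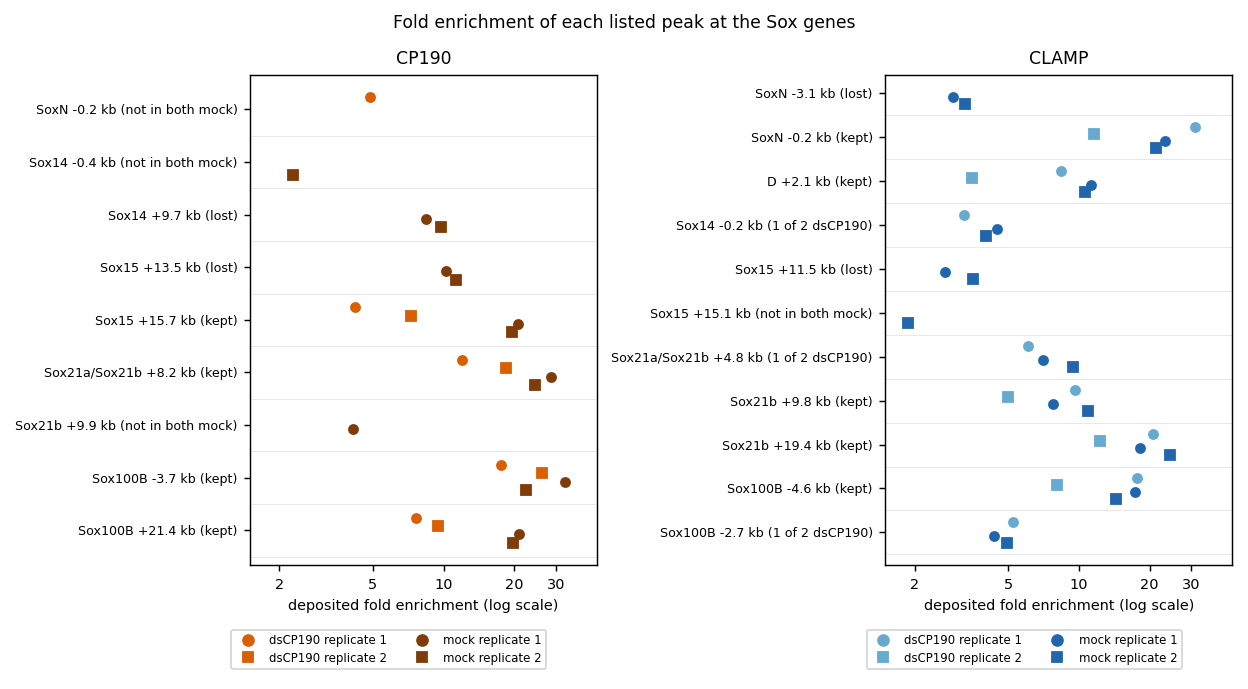
Deposited fold enrichment (log scale) of each listed peak at the Sox genes, CP190 on the left and CLAMP on the right, with 1 row per region named by its gene and the distance of its summit from the lower end of the gene. Circles are replicate 1 and squares replicate 2, and a missing symbol means no listed peak. Both CP190 values of dsCP190 cells lie below both of mock cells at 3 of 4 kept regions, against 92.8% of 1661 over the genome. For CLAMP this holds at 1 of 5 kept regions, against 46.4% of 801, and the values overlap at 4 of 5.

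Whether CP190 depletion changed the number of peaks at these genes was asked by library. CP190 lists had 5 and 4 peaks in the Sox windows in dsCP190 cells and 7 and 7 in mock cells, a mean of 4.5 ± 0.707 against 7.0 ± 0 (SD, n = 2 each). CLAMP lists had 8 and 5 peaks in dsCP190 cells and 10 and 11 in mock cells, a mean of 6.5 ± 2.12 against 10.5 ± 0.707 (SD, n = 2 each). The groups did not overlap for either protein. An exact two-sided permutation of the libraries returned p = 0.333 for each protein, the smallest that 2 libraries against 2 allow. The ratio of means was 0.643 for CP190 and 0.619 for CLAMP at the Sox genes, and 0.332 and 0.375 over all peaks. Nothing in the labels ties the replicates to separate cultures, and the p-values then measure only the spread between these libraries, which may be technical.

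Of the 6 reproducible CP190 regions, 4 were kept, at Sox15, between Sox21a and Sox21b, and on both sides of Sox100B. The 2 regions called in neither dsCP190 library, termed lost, were those at Phm and at the lower end of RpS23. Over the genome 22.6% of 7356 reproducible CP190 regions were kept and 58.4% were lost. Strength in mock cells went with this order. All 4 kept regions were in quintile 5, the strongest by mean mock percentile, where 73.4% of regions were kept. The lost regions were in quintiles 3 and 4, where 66.9% and 28.4% were lost. Over the 1661 kept regions, 92.8% had both dsCP190 folds below both mock folds, and 3 of the 4 at the Sox genes did.

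Of the 10 reproducible CLAMP regions, 5 were kept, at SoxN, D, Sox21b in 2 places and dco, against 21.9% of 3654 over the genome. Another 3 were called in dsCP190 replicate 1 alone, against 38.1% called in 1 dsCP190 library over the genome, and 2 were lost, against 40.0%. In quintile 5, which held 4 of the Sox regions, 80.4% of regions were kept and 0.137% were lost. In quintile 2, which held both lost Sox regions, 68.5% were lost. The median mock fold was 8.80 for the Sox CLAMP regions and 4.41 over all reproducible CLAMP regions. For CP190 it was 20.2 and 8.36.

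**Figure D3:**
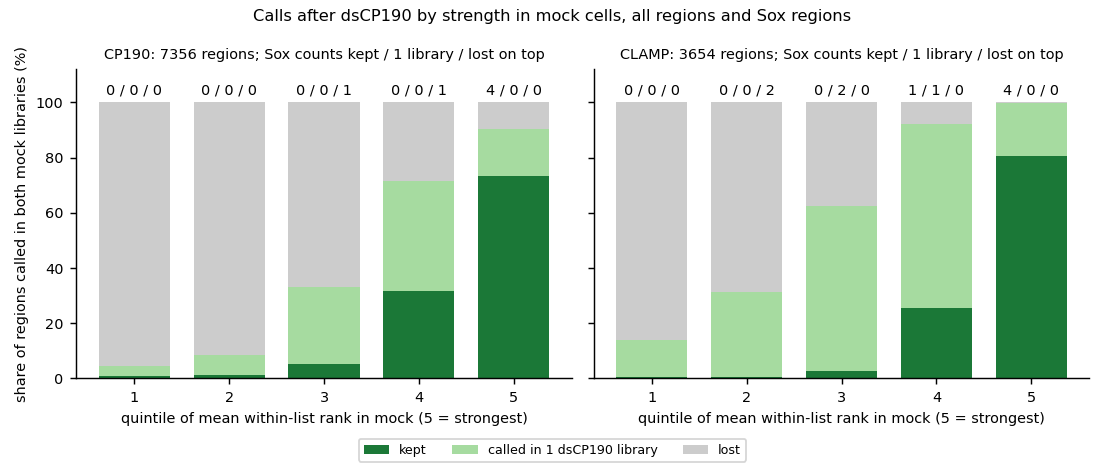
Share of reproducible regions (%) that were kept, called in 1 dsCP190 library or lost, by quintile of mean mock percentile (5 is the strongest), for 7356 CP190 and 3654 CLAMP regions. The 3 numbers above a bar count the Sox regions that were kept, called in 1 dsCP190 library and lost. All 4 kept CP190 regions and 4 of the 5 kept CLAMP regions fall in quintile 5.

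**Figure D4:**
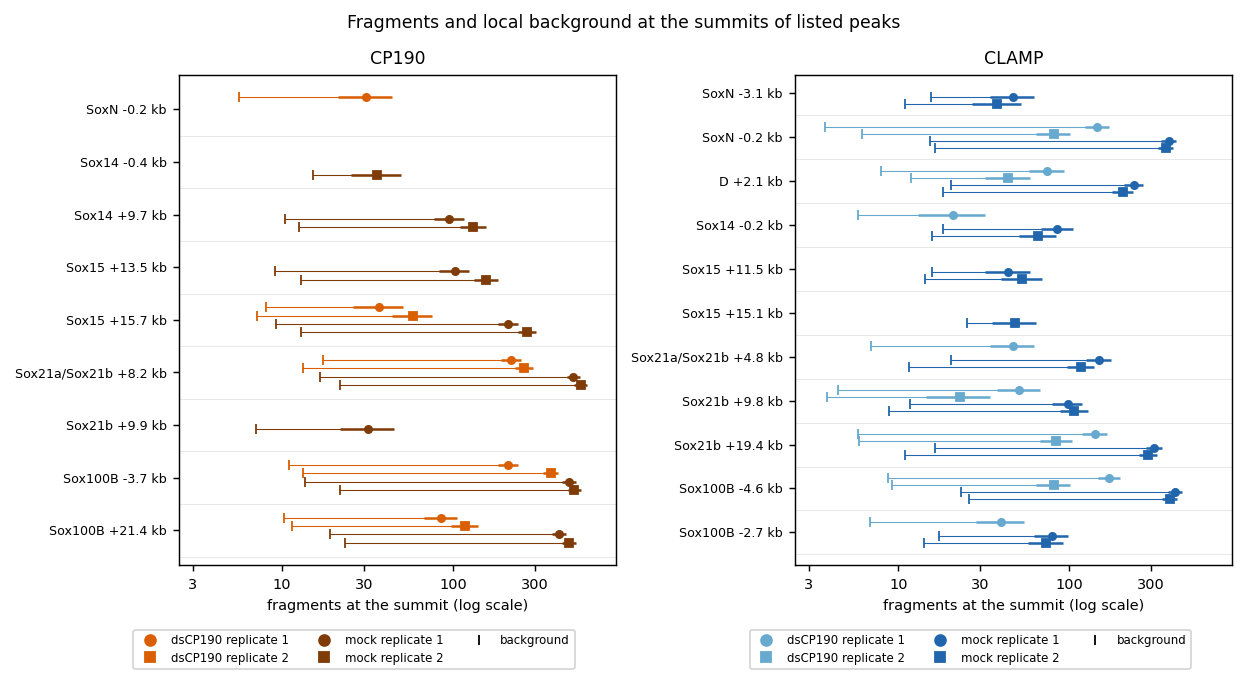
Fragments at the summit of each listed peak at the Sox genes (log scale) with exact Poisson 95% intervals as thick bars, joined by a thin line to the local background (tick). Symbols follow the libraries as labelled. Fragments at reproducible CLAMP regions numbered 21 to 171 in dsCP190 cells and 38 to 416 in mock cells, and those at CP190 regions 37 to 372 and 95 to 557.

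The 2 proteins shared 1 of the 10 reproducible CLAMP regions, that at dco, against 42.3% of 3654 over the genome. No shared region remained when the mean summits of the regions had to lie within 100 bp. The 42.3% holds for overlap, and no share over the genome was taken at that distance. The 3 CP190 peaks listed in a single library, at SoxN, Sox14 and Sox21b, each overlapped a reproducible CLAMP region, against 24.1% of 948 CP190 regions called in a single library. Summit positions were close between replicates, and those of the 2 libraries of a treatment were 9 to 16 bp apart in dsCP190 cells and 3 to 27 bp apart in mock cells for CP190, and 11 to 54 bp and 3 to 105 bp apart for CLAMP.

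Likeness between genes was taken as the Euclidean distance over 8 libraries of the within-list percentile of the strongest peak within 5 kb. The gene most like SoxN was wg, which encodes the Wingless ligand, at a distance of 7.94, followed by noc at 23.0. For wg as for SoxN, CP190 was listed in dsCP190 replicate 1 alone (percentile 58.8 against 64.2 for SoxN), and CLAMP stood at 99.5 and 85.6 in dsCP190 lists and 99.2 and 98.8 in mock lists. Since wg was picked by these same percentiles, they lend no support to the SoxN call. D was most like CG4004 (13.1) and Doc2, a T-box gene (14.1). Sox14 was most like CycD and Lrp4 (7.57 each, with the same values for both), and Sox15 like MYPT-75D (11.7) and COX6B (13.2). Sox21a was most like CG3626 (6.11) and CG5087 (8.44), Sox21b like norpA (6.33) and Mur2B (6.66), and Sox100B like InR (6.96) and Tlk (8.33).

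Genes of the same family, and of tissues and processes in which Sox factors act, were counted from lists, without a test. Over all 13922 protein-coding genes, 79.4% had reproducible CP190 and 31.4% kept CP190 within 5 kb, and 36.1% had reproducible CLAMP and 10.4% kept CLAMP. CLAMP without CP190 was found at 2.41%. Kept counts in the lists are out of the genes with a reproducible region. The matching numbers over all genes were 4370 of 11059 for CP190 and 1449 of 5020 for CLAMP. Of 14 regulators of the neural ectoderm and neuroblasts, 4 had reproducible CP190 and 6 had reproducible CLAMP within 5 kb, and 5 had neither. No share over all genes was taken for neither protein, so whether 5 is unusual was not tested. CLAMP was kept at 5 of the 6, among them Dr and nub, which encode homeodomain and POU domain proteins and had mean mock percentiles of 99.9 and 98.0. CP190 was kept at 1 of the 4, the homeodomain gene ind. All 8 steroid response and pruning genes had both proteins, with CP190 kept at 5, such as Eip74EF and Eip75B, and CLAMP kept at 4, such as br. All 10 intestinal stem cell regulators had CLAMP, kept at 6, such as nub and N, and 5 had CP190, kept at all 5. Of 10 other HMG-box genes, all had CP190, kept at 8, and 7 had CLAMP, kept at 5. Among these, Sox102F, the Sox gene on chromosome 4, had the highest mean mock percentile of CP190 (99.9), with 78.8 and 81.2 in dsCP190 lists. Of 12 hemocyte genes, 9 had CP190, kept at 6, and 6 had CLAMP, kept at 4, with srp at a mean mock percentile of 96.8. The hemocyte count for CP190 was close to the share over all genes.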

How the data were processed

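The data are 1 peak list per immunoprecipitated library, not pooled. Coordinates are on dm6. Tools named, per the submitters' processing notes, are MACS2 2.1.1.20160309, Bowtie2 2.3.4.1, deepTools 3.0.2, Picard 2.18.9 and cutadapt 1.16, with no role stated. The control used for peak calling and its settings are not given in the labels used here. For every peak the deposited columns give a score, the ratio of fold enrichment, and the p-value and q-value as −log10. The score is 10 times the −log10 q-value without its decimals, as the deposited values show.

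Peaks on 6 chromosome arms were matched to RefSeq genes of Release 6, with an overlap of at least 1 bp. Fragments P and background L solve (P + 1)/(L + 1) = fold and the Poisson tail −log10 p, which gave whole P for 33161 of 33172 peaks (tolerance 0.002 in −log10 p). The fragment number that a listed peak needs was set from the lowest −log10 p listed in that library. Background of an unlisted peak was scaled from the mock libraries that list it, or else from the library that does, by the median ratio at shared regions. Fragment recovery and region calls were tested on simulated data. Tools were Python 3.11.15, numpy 2.4.6, pandas 2.3.3 and scipy 1.17.1.

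Members and gene lists were chosen with earlier results of these data known. Named genes are the 7 members, genes that their regions overlap, the 2 most alike per member and up to 3 per list by mock percentile. All 54 listed genes matched. No sequence was used here. Alternatives changed the window, the −log10 q threshold, the summit or overlap rules and the libraries.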

Additional observations from a re-analysis of the deposited data

How the results depend on the processing

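Lists of peaks without counts over regions limit every comparison to calls, and 2 libraries per group allow no p below 0.333. The difference in peaks per library at the Sox genes, dsCP190 minus mock, was -2.5 for CP190 and -4.0 for CLAMP. With gene bodies alone it was -0.5 for CP190, where the libraries of both groups overlapped (means 0.0 in dsCP190 cells and 0.5 in mock cells, exact permutation p = 1.0), and -2.0 for CLAMP. Under the other alternatives run it was -3.5 to -2.0 for CP190 and -5.5 to -2.5 for CLAMP. With gene bodies alone the counts of reproducible, lost and kept CP190 regions were all 0, reproducible CLAMP regions numbered 6, lost CLAMP regions 0 and shared regions 0. With a −log10 q of at least 10, 3 CLAMP regions were kept and 1 was lost. With summits within 100 bp, 0 regions were shared. Leaving out 1 library at a time gave differences of -3.0 to -2.0 for CP190 and -5.5 to -2.5 for CLAMP. It gave 6 to 7 reproducible, 2 to 3 lost and 4 kept CP190 regions, 10 to 11 reproducible, 2 to 5 lost and 5 to 8 kept CLAMP regions, and 1 to 2 shared regions. The 5 lost CLAMP regions came without dsCP190 replicate 1 and the 8 kept ones without dsCP190 replicate 2, since a lost or kept region then needs agreement with 1 library only. Replicate numbers are shared by the groups, but no label says that they mark a batch. Differences between replicates correlated at -0.10 over 1661 CP190 regions and 0.013 over 801 CLAMP regions. With the replicate block the differences were -2.5 for CP190 and -4.0 for CLAMP (exact sign-flip p = 0.5 in both), and the crossed pairing for CP190, added after seeing the data, gave -2.5.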
